A study of Mus musculus with 16 samples.

Results

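Hypoxia-inducible factors (HIFs) and genes of glucose use that they are known to switch on were followed through the retinal pigment epithelium (RPE) of the mouse. The set holds 10 named genes among the 51912 in the count table: the factors Hif1a and Epas1, the prolyl hydroxylase Egln3, the glucose transporter Slc2a1, the enzymes Hk1, Hk2, Pgk1, Ldha and Pdk1, and the mitochondrial protein gene Bnip3. They were chosen by name, for their role, and all 10 were found by Ensembl identifier and passed the filter of a mean of at least 1 CPM (counts per 1000000 counts of a library) over the libraries. All mice were males of 40 weeks on a C57BL/6 background, either wild type or knocked out for SUCNR1 (gene Sucnr1), the cell-surface receptor for succinate. Mice of each genotype either stayed untreated or received hydroquinone, an oxidant found in cigarette smoke, and are called exposed below. This gave 4 groups of 4 libraries, each from the RPE of 1 eye, which had been lifted off the choroid with forceps. By the titles these are 2 mice in untreated wild type, 4 in exposed wild type, 3 in untreated knockout and 4 in exposed knockout, so 3 mice gave both eyes. How the knockout allele was made, and the dose and route of hydroquinone, are not given in the sources used here.

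Cells hold HIF low when oxygen is plentiful. Prolyl hydroxylases, which use oxygen and 2-oxoglutarate and release succinate, mark the HIF alpha subunits for destruction, and Egln3 encodes such an enzyme and is itself a HIF target. When oxygen falls, or when succinate builds up inside the cell and slows these enzymes, the alpha subunits persist, pair with ARNT and bind a short DNA core in genes for glucose uptake, glycolysis and lactate production. Because this control acts on the protein, the mRNA of Hif1a and Epas1 need not move when the pathway does. In the eye the RPE passes glucose from the choroid to the photoreceptors through the transporter that Slc2a1 encodes, and photoreceptors are the strongly glycolytic partner.

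Total counts per library ranged from 21113549 to 35332444. The knocked-out gene did not check the labels, because Sucnr1 held 33 counts in the 16 libraries together and was at 0 in 10 of them. The label of RPE tissue was checked with 12 RPE markers, all detected, and Rpe65, the visual cycle isomerase, stood between 2153 and 4345 CPM. Markers of other tissues were present as well. Krt12, a keratin of the corneal epithelium, ranged from 242 to 10340 CPM. As a summary, a marker score is the mean log2(CPM + 1) of a marker list, and the score of 15 rod genes ran from 2.83 to 9.76 while that of the 12 RPE genes ran from 9.24 to 10.06. Untreated knockout replicate 4 and exposed knockout replicate 1 stood apart, with rod scores of 9.76 and 9.63 against at most 8.54 elsewhere. Values that moved most without them are given both ways. Library identifiers come in a form with a letter (7 libraries) and a form without (9 libraries), which was handled as a possible batch whose meaning the labels do not state.

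The stretch before the start site is shown for 5 genes, because their levels fell into opposing patterns over the libraries, as described further on. Over the 13 mice, Hk2, Ldha, Bnip3 and Pgk1 tended to be higher where rod markers were higher and Pdk1 tended to be lower there. Between the eyes of a mouse this did not always hold. Hk1, which is not shown, was also higher where rod markers were higher. Each line gives the 250 bases before a RefSeq start site on GRCm38.p6, read 5′ to 3′ on the gene's own strand. Capitals mark matches to the HIF core ACGTG or GCGTG on either strand, so that CACGT and CACGC are the same cores read on the other strand. By GENCODE the windows of Hk2, Pgk1 and Pdk1 lie outside the gene, that of Bnip3 covers 13 bases of its first exon, and that of Ldha lies in an intron of a longer annotated form. A CACGTG palindrome holds overlapping matches on both strands and is also the E-box that other helix-loop-helix factors bind.
Hk2, chr6:82774455-82774704, minus strand: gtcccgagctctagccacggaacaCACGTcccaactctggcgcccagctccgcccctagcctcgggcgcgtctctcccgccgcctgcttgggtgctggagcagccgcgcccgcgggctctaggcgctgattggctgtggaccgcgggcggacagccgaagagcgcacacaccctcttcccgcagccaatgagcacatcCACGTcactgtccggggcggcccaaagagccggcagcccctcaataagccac
Ldha, chr7:46845554-46845803, plus strand: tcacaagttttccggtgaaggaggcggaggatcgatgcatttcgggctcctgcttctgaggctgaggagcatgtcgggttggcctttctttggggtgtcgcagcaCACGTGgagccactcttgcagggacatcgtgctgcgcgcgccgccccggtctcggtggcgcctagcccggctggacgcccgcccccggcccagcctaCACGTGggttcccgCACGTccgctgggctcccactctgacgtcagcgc
Bnip3, chr7:138909507-138909756, minus strand: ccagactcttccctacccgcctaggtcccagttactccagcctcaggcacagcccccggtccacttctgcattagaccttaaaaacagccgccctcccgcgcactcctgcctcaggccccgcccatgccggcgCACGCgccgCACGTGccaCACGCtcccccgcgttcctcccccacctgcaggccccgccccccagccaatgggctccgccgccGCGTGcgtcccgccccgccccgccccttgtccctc
Pgk1, chrX:106186850-106187099, plus strand: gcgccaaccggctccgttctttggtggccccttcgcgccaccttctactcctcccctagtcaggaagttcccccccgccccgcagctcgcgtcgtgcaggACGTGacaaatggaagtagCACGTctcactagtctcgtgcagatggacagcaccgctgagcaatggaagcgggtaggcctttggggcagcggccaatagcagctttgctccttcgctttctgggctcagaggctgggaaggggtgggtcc
Pdk1, chr2:71872974-71873223, plus strand: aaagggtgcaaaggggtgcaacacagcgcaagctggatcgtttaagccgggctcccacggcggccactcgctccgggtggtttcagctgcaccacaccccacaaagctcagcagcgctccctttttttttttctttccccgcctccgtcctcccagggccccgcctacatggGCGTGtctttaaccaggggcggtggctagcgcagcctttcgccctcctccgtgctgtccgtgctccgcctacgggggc

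Among the windows shown, a core match stood in both patterns. Ldha held 5 matches, with 2 CACGTG palindromes, and Bnip3 held 5 with 1 palindrome. Hk2 and Pgk1 held 2 each and Pdk1 held 1, and the window of Slc2a1, not shown, held 2. In Pgk1 the matches begin at positions -150 and -131 from the start site, and in Bnip3 they lie between -117 and -35. Ldha and Pdk1 each had a second window at another start site, not shown, with 1 match in Ldha and 0 in Pdk1. The 2 windows of Hk1, not shown, held 0 and 3 matches. Over all members, 12 RefSeq windows were found for 9 genes, and Epas1 had none. Of these 12 windows, 10 held a match and 7 held 2 or more. Of 32851 such windows of all genes, 38.6% held at least 1 match, 16.7% held 2 or more and 6.02% held the palindrome. These matches describe letters only, and binding was not measured here.

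No member passed the threshold in any comparison of the study. With edgeR's quasi-likelihood test on all 16 libraries and an adjusted p below 0.05 over 15380 genes, 0 of 10 members were called with hydroquinone in wild type, where 0.0065% of all genes were called. The same count was 0 of 10 with hydroquinone in knockout (0.0455% of all genes) and 0 of 10 with hydroquinone averaged over genotype (0.0845% of all genes). It was 0 of 10 for knockout against wild type in untreated mice, under hydroquinone and averaged over treatment, and for the interaction, where 0% of all genes were called in each. DESeq2, and limma with mouse as random block, also called 0 members in each of the 7 comparisons. At such low shares the members' counts cannot set them apart from other genes, and a missed threshold does not show that levels were equal, so intervals are given below.

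Without adjustment, an edgeR p below 0.05 was reached by 1 of 10 members under hydroquinone between genotypes (4.18% of all genes), by DESeq2 also by 1 and by limma by 0. In the other 6 comparisons 0 of 10 reached it with each of these tools. The share of all genes that did so with edgeR was 4.28% for hydroquinone in wild type, 2.96% in knockout and 5.72% averaged over genotype. It was 1.32% for knockout against wild type in untreated mice, 2.96% averaged over treatment and 1.92% for the interaction. The libraries of the groups overlapped for every member in the 4 comparisons of 2 groups. Of all genes, 2.91% did not overlap for hydroquinone in wild type, 1.91% in knockout, 1.05% between untreated genotypes and 2.33% between genotypes under hydroquinone. P-values measure the spread between libraries, and the eyes of 1 mouse entered as separate libraries.

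**Figure D1:**
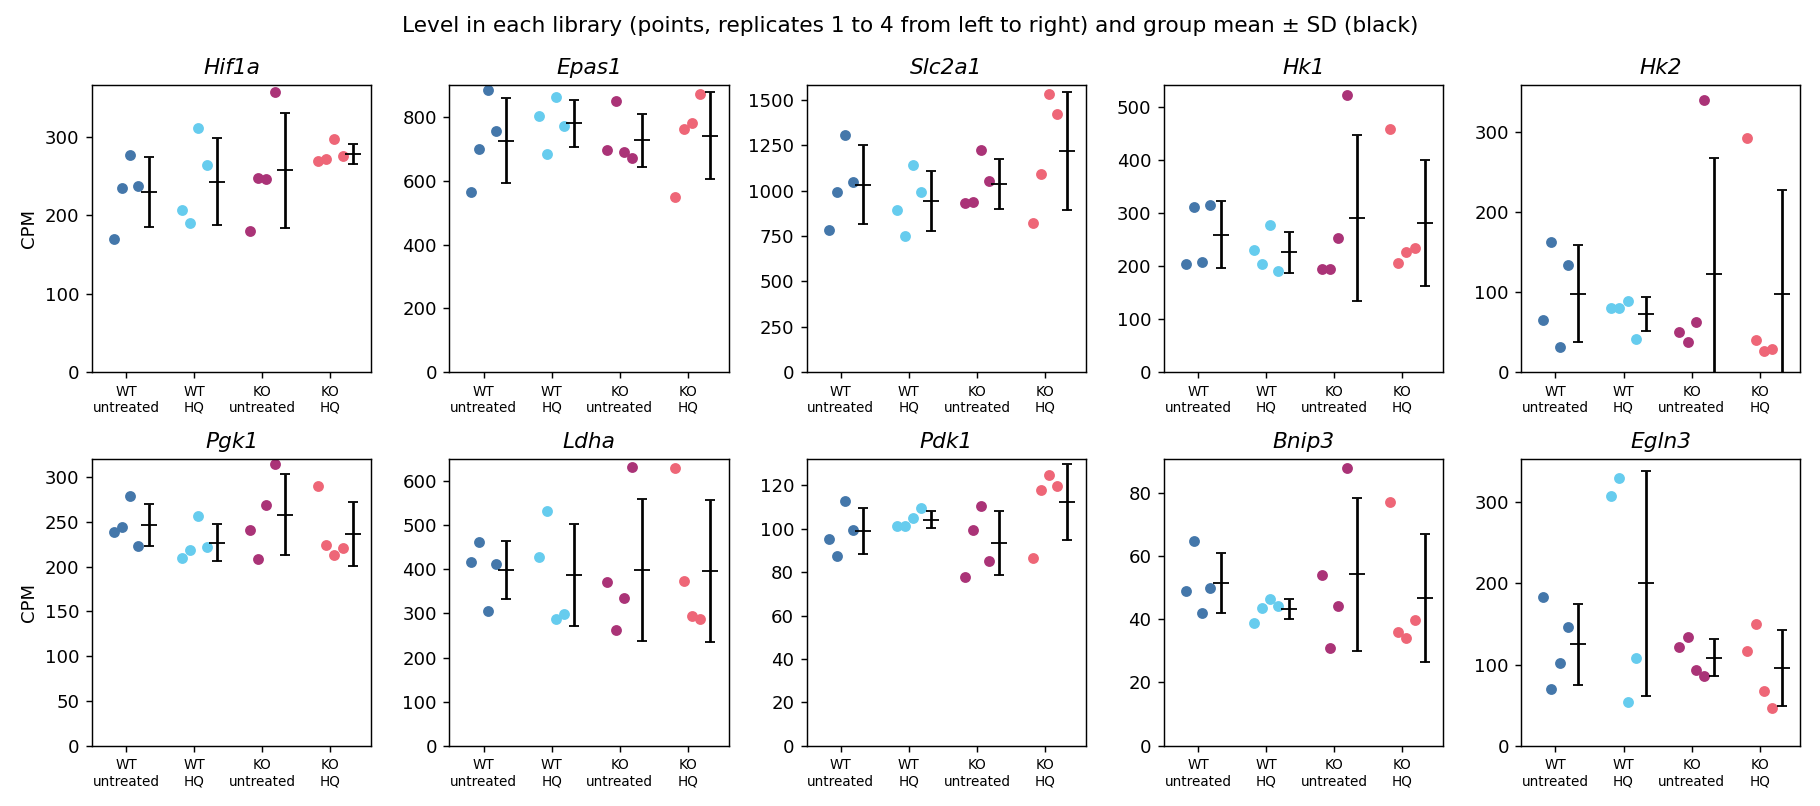
Level of each of the 10 genes in CPM (vertical axes, linear, from 0) in the 4 libraries of each group, with the group mean ± SD in black (lower ends cut at 0); HQ is hydroquinone. The groups overlap for every gene, and untreated knockout replicate 4 and exposed knockout replicate 1 lie above the rest of their groups for Hk1, Hk2, Ldha and Bnip3.

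Per kilobase of annotated exon, which is the scale on which levels of different genes are compared here, the glucose transporter gene led. Slc2a1 averaged 302 ± 64 CPM per kb over the 16 libraries (SD). Epas1 followed with 133 ± 18, Ldha with 119 ± 36 and Pgk1 with 108 ± 14 CPM per kb, and these 3 did not differ beyond their spread. Egln3 (49.7 ± 30.7), Hif1a (42.7 ± 8.4) and Hk1 (31.0 ± 11.4 CPM per kb) formed an overlapping middle. Bnip3 (21.6 ± 6.8), Hk2 (16.3 ± 15.7) and Pdk1 (13.1 ± 1.7 CPM per kb) had the lowest means. The spreads of Bnip3 and Hk2 overlapped that of Hk1. Exon lengths join the exons of all annotated transcripts, so long rare forms lower a gene's value.

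Hif1a (chromosome 12, 73901375 to 73947530, plus strand, GRCm38) encodes HIF-1 alpha. Its level was 169, 235, 277 and 237 CPM in the untreated wild-type libraries, replicates 1 to 4, and 207, 189, 311 and 264 CPM in exposed wild type. In knockout it was 180, 247, 246 and 357 CPM untreated and 269, 271, 297 and 275 CPM with hydroquinone. The untreated knockout group held the highest library and the untreated wild type the lowest, and all groups overlapped. The group means ran from 230 ± 45 CPM in untreated wild type to 278 ± 13 CPM in exposed knockout (SD, n = 4 libraries), and here, as for every member, neighbours in the order of the means overlapped within their SD. With hydroquinone averaged over genotype the log2 fold change was 0.10 (SE 0.14, 95% interval -0.21 to 0.40, edgeR adjusted p = 0.945). In knockout against wild type averaged over treatment it was 0.18 (SE 0.14, -0.13 to 0.49, adjusted p = 0.987). The highest Hif1a library is 1 of the 2 richest in rod markers, and without both the values were 0.21 with hydroquinone and 0.088 in knockout. With the score of 6 corneal epithelium markers as a covariate the value in knockout was 0.081.

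Epas1 (chromosome 17, 86753700 to 86833410, plus strand) encodes HIF-2 alpha, the form known for its high level in endothelium. It stood at 564, 700, 885 and 756 CPM in untreated wild type and at 805, 684, 862 and 772 CPM with hydroquinone. In knockout the libraries held 696, 852, 689 and 671 CPM untreated and 550, 762, 783 and 873 CPM with hydroquinone. The highest group mean was 1.08 times the lowest, the second closest after Ldha. Its 95% interval for hydroquinone was -0.17 to 0.31 around a log2 fold change of 0.067 (SE 0.11), and for knockout -0.28 to 0.20 around -0.036 (SE 0.11). Over mice, Pearson's r of Epas1 was 0.72 with the RPE score and 0.32 with the score of 12 endothelial markers, all detected (adjusted permutation p = 0.0268 and 0.394). Spearman's rho was 0.65 with either score (adjusted permutation p = 0.0874 each), and without the 2 mice farthest from the median r was 0.46 with the RPE score and 0.63 with the endothelial score, so the data do not rank these links. Pecam1, an endothelial adhesion gene, ranged from 19.3 to 55.9 CPM.

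Egln3 (chromosome 12, 54178981 to 54203860, minus strand) varied more between groups than any other member. Its level was 183, 69.5, 102 and 146 CPM in untreated wild type and 308, 330, 54.2 and 108 CPM in exposed wild type. In knockout it was 122, 133, 93.3 and 85.8 CPM untreated and 117, 150, 67.9 and 46.6 CPM with hydroquinone. The high mean of exposed wild type, 200 ± 139 CPM (SD, n = 4 libraries), came from replicates 1 and 2, while replicate 3 of the same group was among the lowest of all libraries. Exposed knockout averaged 95.3 ± 46.9 CPM, which put the log2 fold change against exposed wild type at -1.07 (SE 0.50, 95% interval -2.14 to -0.0025, edgeR unadjusted p = 0.0495, adjusted p = 1.00). This was the only member past an unadjusted 0.05 in any comparison, with a test of the interaction at -0.87 (SE 0.70, unadjusted p = 0.236). Leaving out 1 library moved the value between exposed genotypes to -0.72 without exposed wild type replicate 2 and to -1.38 without its replicate 3, and the interaction to -0.51 and -1.18. Averaged over treatment the value in knockout was -0.64 (SE 0.35, 95% interval -1.38 to 0.11), and averaged over genotype that with hydroquinone was 0.24 (SE 0.35, -0.50 to 0.99), or 0.068 without exposed wild type replicate 2.

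The Egln3 libraries followed the corneal epithelium score, the mean of 6 markers, all detected. That score was 10.91 and 10.92 in replicates 1 and 2 of exposed wild type, the highest of all libraries, and 8.50 in replicate 3, the lowest. It ran from 9.09 to 10.51 in untreated wild type, 9.23 to 10.00 in untreated knockout and 8.52 to 10.39 in exposed knockout. Over 13 mice, with eyes averaged, Pearson's r of Egln3 and the corneal score was 0.97 and Spearman's rho 0.94 (permutation test, 100000 resamples, 2-sided, p = 1e-05 each, the smallest they can give, adjusted p = 0.0004 each over 120 relations). It was 0.95 without the 2 mice farthest from the median score, 0.96 in the libraries without a letter and 0.96 in those with one. With the corneal score as a covariate, the Egln3 log2 fold change between genotypes under hydroquinone was -0.13, against -1.07 without it, and averaged over treatment it was 0.033 against -0.64. The part of corneal RNA in this result was not tested.

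Slc2a1 (chromosome 4, 119108711 to 119137983, plus strand) encodes GLUT1, the glucose transporter on both faces of the RPE. The libraries held 782, 992, 1309 and 1048 CPM in untreated wild type and 894, 752, 1143 and 991 CPM with hydroquinone. In knockout they held 932, 940, 1227 and 1055 CPM untreated and 823, 1093, 1536 and 1426 CPM with hydroquinone. The highest 2 values of all libraries were in the last group, whose replicate 1 was nonetheless among the lowest. Under hydroquinone the knockout was higher by a log2 fold change of 0.37, which did not pass (SE 0.20, 95% interval -0.068 to 0.80, edgeR adjusted p = 1.00). In the identifier form lacking a letter it was 0.0066, and in the lettered form, where exposed wild type has a single library, 0.58. Leaving out 1 library gave 0.23 without exposed knockout replicate 3 to 0.52 without its replicate 1. With the corneal score as a covariate it was 0.20 and with the rod score 0.28, and the part of other tissue was not tested. Averaged over treatment the log2 fold change in knockout was 0.19 (SE 0.14, -0.12 to 0.50), and with hydroquinone averaged over genotype 0.052 (SE 0.14, -0.26 to 0.36).

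Hexokinases trap glucose in the cell as glucose 6-phosphate. Hk1 (chromosome 10, 62268855 to 62379908, minus strand) is the broadly expressed form, and its level was 204, 312, 207 and 316 CPM in untreated wild type and 231, 204, 278 and 191 CPM with hydroquinone. In knockout it was 194, 194, 254 and 523 CPM untreated and 458, 206, 226 and 235 CPM with hydroquinone. A single library in each knockout group was far above its group, and the other 6 knockout libraries lay within the wild-type range. The log2 fold change was -0.12 with hydroquinone (SE 0.23, 95% interval -0.61 to 0.36) and 0.24 in knockout (SE 0.23, -0.25 to 0.73). The value in knockout was 0.018 without untreated knockout replicate 4, 0.071 without exposed knockout replicate 1 and -0.15 without both.

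Hk2 (chromosome 6, 82725025 to 82774454, minus strand) is the hexokinase known from photoreceptors and muscle, and it spread most of all members, 13-fold from the lowest to the highest library. It stood at 64.5, 162, 31.4 and 133 CPM in untreated wild type and at 80.3, 80.3, 89.1 and 40.8 CPM with hydroquinone. In knockout it stood at 49.6, 37.7, 62.2 and 340 CPM untreated and at 292, 40.1, 26.2 and 29.1 CPM with hydroquinone. The same libraries that were high for Hk1 were high here, and both were the libraries richest in rod markers. The log2 fold change of -0.38 with hydroquinone (SE 0.59, 95% interval -1.64 to 0.88) and that of 0.37 in knockout (SE 0.59, -0.89 to 1.63) had the widest intervals of the members.

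These Hk2 values rested on the libraries that stood apart. Without untreated knockout replicate 4 the log2 fold change of Hk2 with hydroquinone was 0.27 and that in knockout -0.28. Without exposed knockout replicate 1 they were -1.19 and -0.43, and without both libraries -0.52 and -1.08. The values also differed between the identifier forms, each of which holds 1 of the 2 rod-rich libraries, so that this split is not separate from them. With hydroquinone the log2 fold change was 1.35 in the 9 libraries without a letter and -2.36 in the 7 that carry one, with only 1 exposed wild-type library among the latter (edgeR adjusted p = 0.151 with a letter, the lowest adjusted p of a member in any fit). In knockout the values within the forms were 0.40 and -0.060. With the rod score as a covariate the values for Hk2 were 0.017 with hydroquinone and 0.45 in knockout (adjusted p = 0.705), and the part of rod RNA in the result was not tested. Of the 10 members, 7 had opposite directions in the identifier forms for hydroquinone and 6 for knockout.

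Pgk1 and Ldha act at the lower end of glycolysis, where phosphoglycerate kinase yields ATP and lactate dehydrogenase A turns pyruvate into lactate. Pgk1 (chromosome X, 106187100 to 106203699, plus strand) held 238, 244, 279 and 223 CPM in untreated wild type and 209, 218, 256 and 221 CPM with hydroquinone. In knockout it held 240, 208, 269 and 315 CPM untreated and 290, 224, 213 and 221 CPM with hydroquinone. All groups overlapped, and the spread from lowest to highest library, 1.51-fold, was the narrowest of the members. Its log2 fold change was -0.12 with hydroquinone (SE 0.096, 95% interval -0.33 to 0.083) and 0.067 in knockout (SE 0.096, -0.14 to 0.27).

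Ldha (chromosome 7, 46841475 to 46855627, plus strand) held 417, 461, 304 and 411 CPM in untreated wild type and 428, 531, 288 and 299 CPM with hydroquinone. In knockout it held 371, 262, 334 and 631 CPM untreated and 630, 374, 294 and 287 CPM with hydroquinone. The group means lay between 386 ± 116 CPM in exposed wild type and 399 ± 161 CPM in untreated knockout (SD, n = 4 libraries), the closest of all members, although the libraries inside each knockout group spread over 2-fold. The log2 fold change was -0.028 with hydroquinone (SE 0.21, 95% interval -0.48 to 0.43) and 0.019 in knockout (SE 0.21, -0.43 to 0.47), and the latter was -0.30 without the 2 rod-rich libraries.

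Pdk1 (chromosome 2, 71873224 to 71903858, plus strand) encodes a pyruvate dehydrogenase kinase, which keeps pyruvate out of the mitochondria. The libraries held 95.2, 87.6, 113 and 99.6 CPM in untreated wild type and 101, 101, 105 and 109 CPM with hydroquinone. In knockout they held 77.8, 99.5, 111 and 85.1 CPM untreated and 86.4, 118, 125 and 120 CPM with hydroquinone. Here 3 of the 4 knockout libraries with hydroquinone exceeded all 12 others, and replicate 1 of that group, a library rich in rod markers, lay below most. Within knockout the log2 fold change with hydroquinone was 0.27 (SE 0.13, 95% interval -0.011 to 0.54, edgeR unadjusted p = 0.0588, adjusted p = 1.00). Averaged over genotype it was 0.17 (SE 0.092, -0.025 to 0.37, adjusted p = 0.901), and in knockout against wild type 0.012 (SE 0.092, -0.18 to 0.21).

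Bnip3 (chromosome 7, 138890836 to 138909519, minus strand) encodes a receptor for the removal of mitochondria and is a textbook HIF-1 target. It held 48.8, 64.6, 42.1 and 49.96 CPM in untreated wild type and 38.8, 43.5, 46.3 and 44.0 CPM with hydroquinone. In knockout it held 54.0, 31.0, 44.2 and 87.6 CPM untreated and 76.9, 35.9, 34.1 and 39.6 CPM with hydroquinone. The highest libraries were again the pair richest in rod markers. The log2 fold change was -0.23 with hydroquinone (SE 0.21, 95% interval -0.67 to 0.21; -0.066 without untreated knockout replicate 4 and -0.41 without exposed knockout replicate 1) and 0.094 in knockout (SE 0.21, -0.35 to 0.53), and the latter was -0.25 without the 2 rod-rich libraries.

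**Figure D2:**
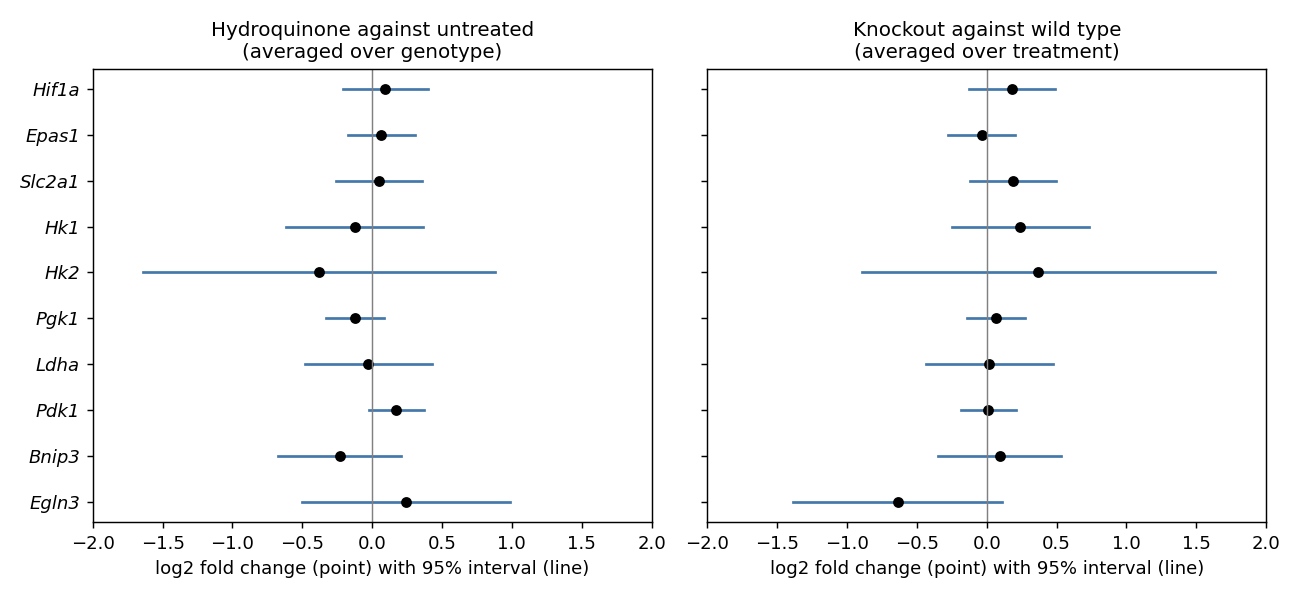
Fitted log2 fold changes (points) with 95% intervals (lines) of the 10 genes for hydroquinone against untreated (left) and knockout against wild type (right), from edgeR on 16 libraries. Every interval includes 0, and those of Hk2 are the widest, from -1.64 to 0.88 and from -0.89 to 1.63.

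Several members varied together over libraries while the groups overlapped. Over the 16 libraries, as a description on log2(CPM + 1), Pearson's r was 0.88 for Hk1 and Hk2, 0.87 for Hk2 and Bnip3, 0.85 for Hk2 and Ldha and 0.77 for Pgk1 and Bnip3. Pdk1 went the other way, with r = -0.69 against Hk2 and -0.74 against Bnip3, and Epas1 had r = -0.74 against Ldha. Slc2a1 went with Pdk1 (r = 0.65), Hif1a (0.64) and Epas1 (0.62), and against Egln3 (-0.73). Hif1a and Epas1 were only loosely alike, with r = 0.37. Both genes of a pair were read from the same libraries, which differ in depth and tissue make-up.

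The relation of each member to 12 marker scores was then tested over the 13 mice, with the eyes of a mouse averaged, which makes 120 relations. By Pearson's r, 31 passed an adjusted permutation p below 0.05, and 16 of these also passed by Spearman's rho. In these bulk samples more cells of a type and more RNA per cell cannot be told apart. Of the 12 lists none had a marker at 0 in every library. Hk2 and the rod score gave r = 0.96 and rho = 0.98 (permutation p = 1e-05 each, the smallest possible, adjusted p = 0.0004 each), r = 0.95 without the 2 mice farthest from the median, and 0.88 and 0.96 within the identifier forms without and with a letter. Bnip3 gave r = 0.85 and rho = 0.77 (permutation p = 0.00024 and 0.00303, adjusted p = 0.0031 and 0.0324), with 0.62 and 0.88 within the forms. Ldha gave r = 0.83 and rho = 0.78 (adjusted permutation p = 0.0053 and 0.0324), with 0.66 and 0.90 within the forms.

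Hk1 and Pgk1 were linked to the rod score by r, 0.78 and 0.76 (adjusted permutation p = 0.0064 and 0.0143), and missed the threshold by rho, 0.55 and 0.58 (adjusted permutation p = 0.171 and 0.148). Their r without the 2 farthest mice was 0.86 and 0.74. Within the forms without and with a letter r was 0.79 and 0.83 for Hk1 and 0.42 and 0.75 for Pgk1. Pdk1 went against the rod score with r = -0.84 and rho = -0.80 (adjusted permutation p = 0.0046 and 0.0229), with -0.92 among libraries with a letter and -0.15 among those without. Slc2a1 and Epas1 were linked to the RPE score by r, 0.76 and 0.72 (adjusted permutation p = 0.0143 and 0.0268), and by rho missed the threshold, at 0.69 and 0.65 (adjusted permutation p = 0.0596 and 0.0874). Without the 2 farthest mice these r values were 0.64 and 0.46. Slc2a1 also went against the corneal score by r, -0.67 (adjusted permutation p = 0.0485), and missed the threshold by rho, -0.54 (adjusted permutation p = 0.178). Hk2 also followed the score of 8 cone genes (r = 0.98) and went against the RPE score (r = -0.84). It followed the score of 12 skeletal muscle genes as well (r = 0.71, rho = 0.75, adjusted permutation p = 0.0298 and 0.0324). For muscle, r was 0.41 among libraries without a letter, 0.63 among those with one and 0.43 over libraries within groups. Ldha went against the RPE score, with r = -0.89 and rho = -0.86 (adjusted permutation p = 0.0014 and 0.0058). The relations with the cone score of Bnip3 (r = 0.93), Ldha (0.87) and Pdk1 (-0.81) and those with the melanocyte score of Hk2 (-0.92), Ldha (-0.90) and Pdk1 (0.75) also passed by both measures. The melanocyte list holds Mlana, Dct, Tyr, Kit, Ednrb and Mitf. Mlana is also in the RPE list, so the melanocyte and RPE scores are not separate measures. Hif1a went against the corneal score (r = -0.67, rho = -0.74, adjusted permutation p = 0.0491 and 0.0371), with r = -0.44 without the 2 farthest mice, and had r = 0.0015 with the rod score and 0.11 with the RPE score.

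**Figure D3:**
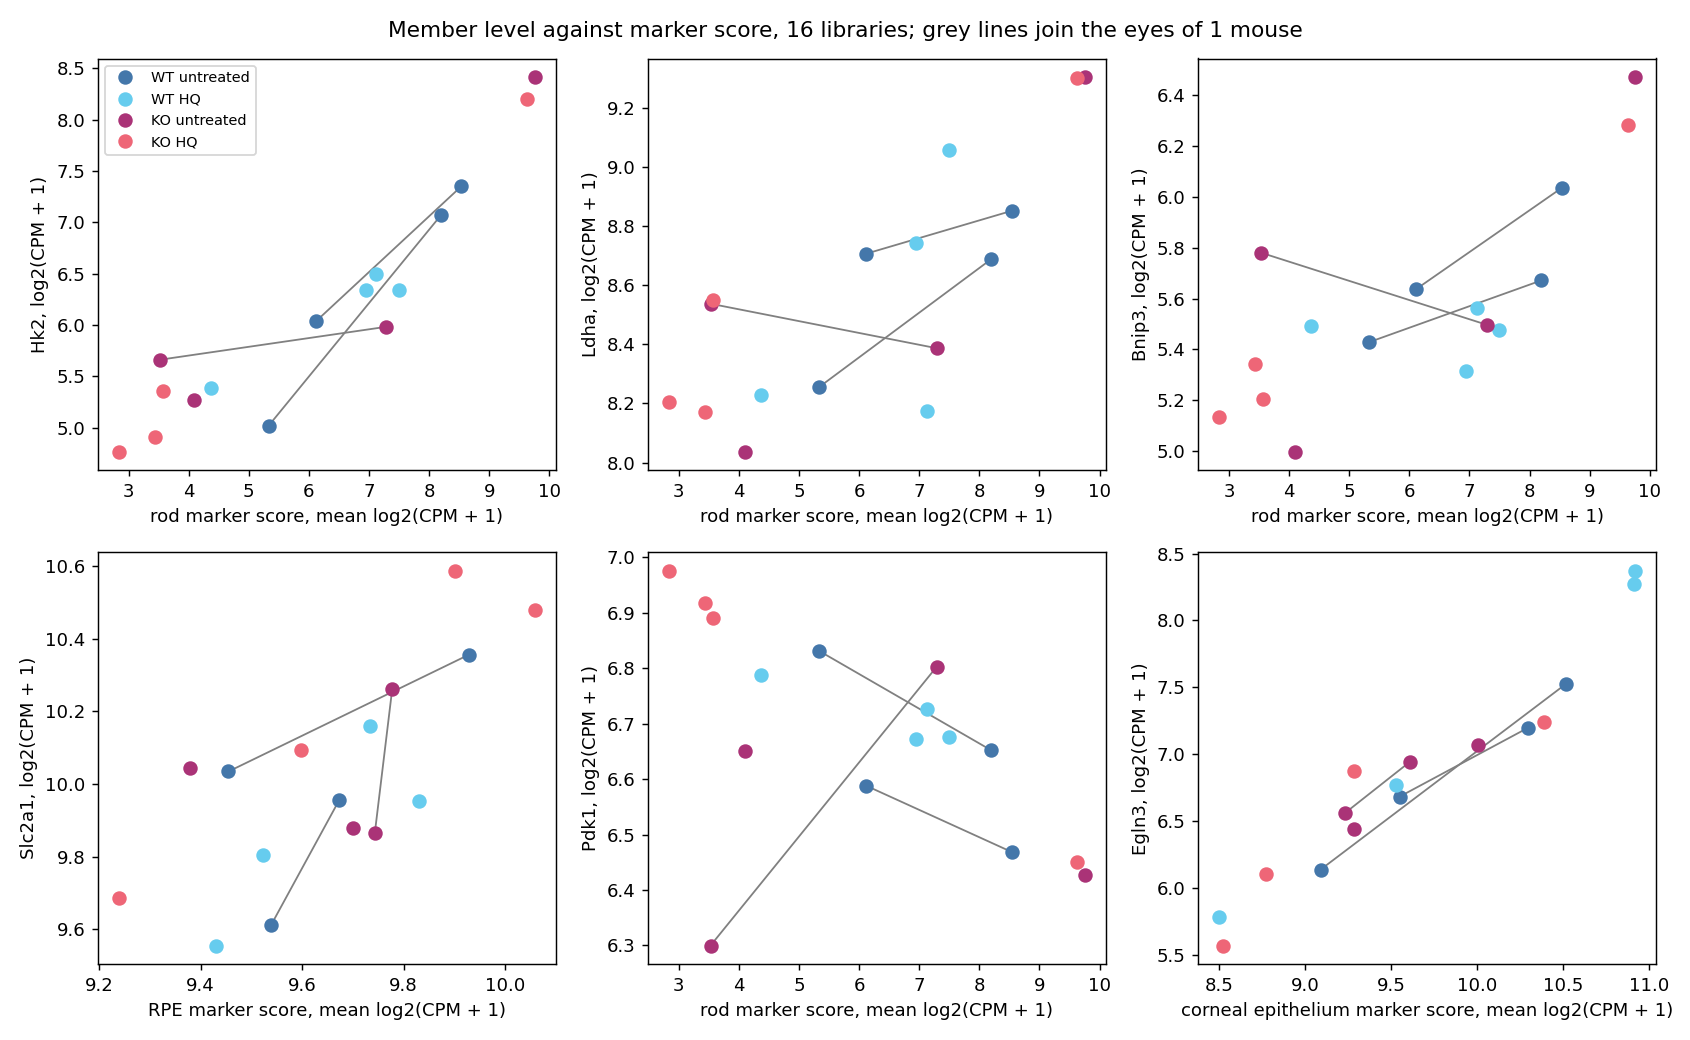
Levels of 6 genes (vertical axes, log2(CPM + 1)) against a marker score of the same library (horizontal axes, mean log2(CPM + 1)), with points coloured by group and grey lines joining the eyes of 1 mouse. Hk2, Ldha and Bnip3 tend to be high where the rod score is high, and Pdk1 tends to be low there. Slc2a1 tends to be high where the RPE score is high. Egln3 follows the corneal score (r = 0.97 over mice) in every group.

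**Figure D4:**
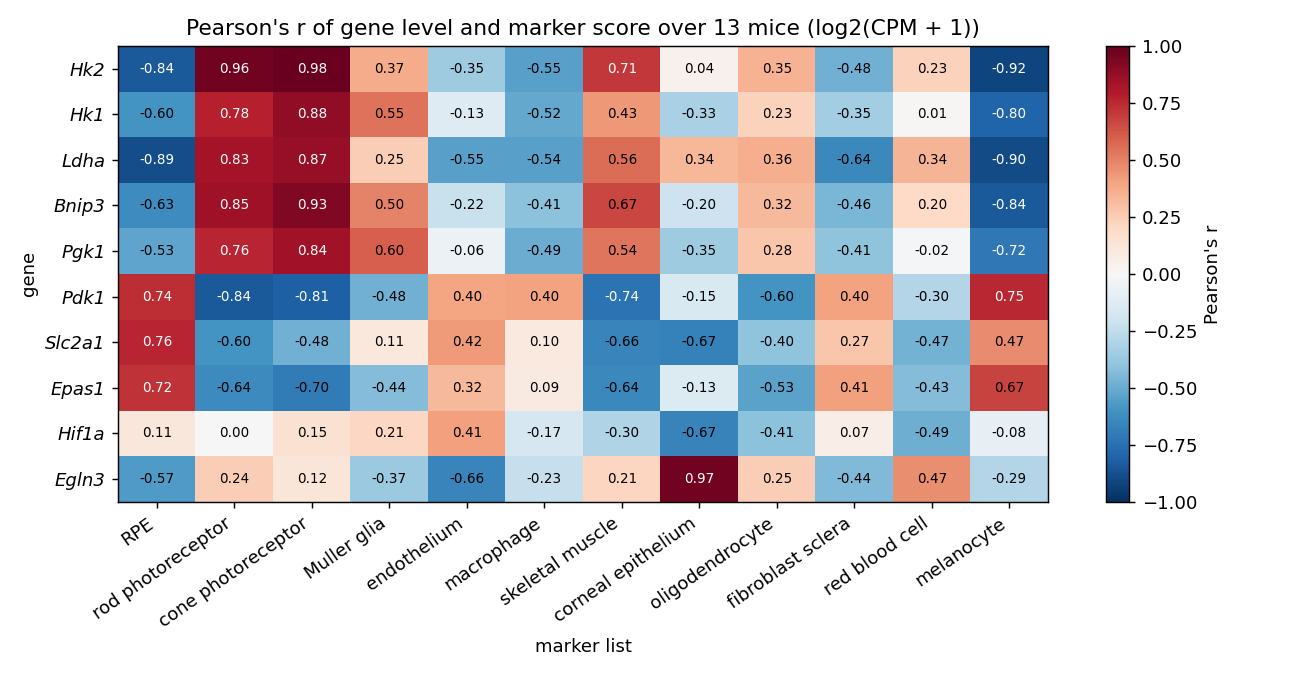
Pearson's r over 13 mice between the level of each gene (rows) and the score of each of 12 marker lists (columns), with red for positive and blue for negative values. The rod column runs from 0.96 for Hk2 to -0.84 for Pdk1, and the corneal column reaches 0.97 for Egln3.

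Eyes of 1 mouse share genotype and treatment, and in the wild-type mice their Hk2 levels lay further apart than the group means did. In 1 untreated wild-type mouse Hk2 was 31.4 CPM in the right eye and 133 CPM in the left, a 4.24-fold difference, with rod scores of 5.33 and 8.20. In the other it was 64.5 and 162 CPM, 2.51-fold, with rod scores of 6.12 and 8.54. In the untreated knockout mouse the eyes held 62.2 and 49.6 CPM of Hk2, a 1.25-fold difference, with rod scores of 7.29 and 3.53, so a large gap in rod score came with a small gap in Hk2 there. The eye richer in rod markers held less Ldha (334 against 371 CPM) and Bnip3 (44.2 against 54.0 CPM). That eye held more Pdk1 (111 against 77.8 CPM). In both wild-type mice these genes went the other way. Pgk1 was lower in the rod-richer eye of the wild-type mouse with scores of 5.33 and 8.20 (223 against 279 CPM). It was higher in that eye of the other mice. Egln3 differed 2.64-fold between the eyes of a wild-type mouse, with 183 CPM at a corneal score of 10.51 and 69.5 CPM at 9.09. For comparison, the highest and lowest group means of Hk2 differed 1.68-fold and those of Egln3 2.10-fold. In each of the 2 wild-type mice the right eye carried the identifier without a letter, so eye and identifier form cannot be told apart there.

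The wider pathway showed no called gene either. Lists of 14 genes of the HIF machinery (partners, hydroxylases and the VHL complex), 24 further glycolysis genes, 16 gates of glucose, lactate and pyruvate, and 28 other HIF targets were read from the same fit. Tested were 14, 21, 16 and 26 of them. In each list and each of the 7 comparisons 0 genes passed in either direction with edgeR, and between 0 and 3 had an unadjusted p below 0.05. The count of 3 was reached by the 26 HIF targets with hydroquinone in wild type, where 4.28% of all genes did so. They also reached it averaged over genotype (5.72% of all genes) and between genotypes under hydroquinone (4.18% of all genes). With hydroquinone averaged over genotype the fitted change was negative for 21 of 26 HIF targets (median -0.11), 13 of 16 gate genes (median -0.090) and 15 of 21 glycolysis genes (median -0.062), against a median of 0.0046 over all genes, of which 51.2% were positive. The HIF machinery stood at 7 positive and 7 negative, with a median of -0.012. Within genotypes the glycolysis list was positive for 5 and negative for 16 genes in wild type (median -0.14) and positive for 13 and negative for 8 in knockout (median 0.021). The gate list was negative for 13 of 16 in wild type and 9 of 16 in knockout. The HIF targets were positive for 7 and negative for 19 genes in each genotype (medians -0.11 in wild type and -0.079 in knockout). Averaged over treatment, the fitted change in knockout was positive for 21 of 26 HIF targets (median 0.063) and 14 of 21 glycolysis genes (median 0.090), against a median of 0.020 over all genes, of which 55.7% were positive. Between untreated genotypes the glycolysis list held 11 positive and 10 negative values (median 0.0093), and under hydroquinone 17 and 4 (median 0.19). The HIF targets held 18 and 8 between untreated genotypes (median 0.040), and 19 and 7 under hydroquinone (median 0.088). For the gate list the values were 8 and 8, then 13 and 3, and for the HIF machinery 9 and 5, then 7 and 7. Genes of a list were read from the same 16 libraries, so their directions are not separate observations. The rod score averaged 7.04 ± 1.57 in untreated and 6.48 ± 1.43 in exposed wild type (SD, n = 4 libraries). In knockout it averaged 6.17 ± 2.91 untreated and 4.87 ± 3.19 with hydroquinone. The part of tissue make-up in these directions was not tested.

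The genes with the smallest p of each list are named, none of which passed. Ndrg1, a hypoxia-inducible stress gene, averaged 265 ± 101 CPM in untreated wild type and 142 ± 12 CPM in exposed wild type (SD, n = 4 libraries), which gave -0.90 on the log2 scale (SE 0.27, adjusted p = 0.994 with edgeR). In knockout Ndrg1 averaged 278 ± 31 CPM untreated and 243 ± 91 CPM with hydroquinone. P4ha2, a collagen prolyl hydroxylase subunit, was higher in knockout than in wild type under hydroquinone by 0.39 on the log2 scale (SE 0.11, adjusted p = 1.00), with 17.9 ± 1.7 against 13.6 ± 0.9 CPM. Aldoc, an aldolase of neural tissue, differed there by 0.74 (SE 0.26), and Pdk2, a sister kinase of Pdk1, by 0.34 (SE 0.12). Arnt2, a partner of HIF alpha subunits known from neural tissue, had a log2 fold change of -1.63 with hydroquinone in wild type (SE 0.55, adjusted p = 0.994), with 35.7 ± 23.6 CPM untreated and 11.5 ± 4.8 CPM exposed. Slc16a7, a monocarboxylate transporter, had -0.35 with hydroquinone averaged over genotype (SE 0.15). The score of 7 oligodendrocyte markers averaged 6.40 ± 2.66 in untreated and 3.35 ± 1.91 in exposed wild type (SD, n = 4 libraries). In knockout this score averaged 6.21 ± 1.59 untreated and 4.75 ± 2.38 with hydroquinone. The part of such RNA in the Ndrg1 and Arnt2 values was not tested.

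In the remaining comparisons the lowest p of a list belonged to genes that also missed the threshold with edgeR. With hydroquinone in knockout these included Eloc, of the VHL complex (log2 fold change -0.32), and Hk3 (0.49). With hydroquinone averaged over genotype Pgam2, the muscle phosphoglycerate mutase, had -0.54. Between untreated genotypes they were Cul2 (0.12), Pfkl (0.19), Pdha1 (-0.16) and Plod1 (-0.30), and averaged over treatment Hif3a (0.38) and Gpi1 (0.18).

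Genes most like each member over the 16 libraries, by Pearson's r of log2(CPM + 1) among all tested genes, were listed as a description. Among the genes most like Egln3 were Mal2 (r = 0.99) and Krt5 (0.98), a keratin of basal surface epithelium. Krt5 is also a marker in the corneal score, so this likeness is not separate from the relation to that score. Bnip3 was closest to Slc16a3 (r = 0.96), the lactate exporter MCT4, then to Dnajc27 and Neurl1a (0.94 each). Hk2 was closest to 5330413P13Rik, Inka2 and Psd (0.98 each) and Hk1 to Msi1 (0.99), Mllt6 and Rnf157 (0.98 each). Slc2a1 was closest to Slc7a8 (0.95), an amino acid transporter, then Nynrin and Man1c1 (0.94 each).

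Among the remaining members Hif1a was closest to Steap2 (0.96), Trim23 and Epm2aip1 (0.93 each), and Ldha to Ccdc115 (0.95), Adipor1 (0.94) and Llgl2 (0.93). Epas1 was closest to Abcc4 (0.90), Rnf217 (0.87) and 9930014A18Rik (0.86). Pdk1 was closest to Cpz (0.91), with Gm40932 (0.89) also among the nearest, and Pgk1 was closest to 4933421O10Rik, E330034L11Rik (0.89 each) and A330094K24Rik (0.88).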

How the data were processed

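RNA sequencing of mouse RPE was deposited as a table of whole-number read counts per Ensembl gene in 16 libraries. Although its name says FPKM, the deposited file holds whole numbers in 100% of cells, with unequal totals, and was read as counts. The submitters' processing notes name STAR, Cufflinks, DESeq2 and mm10, without roles. Counter, annotation, strand and duplicate handling are not given in the sources used here. Symbols, coordinates (1-based) and exon lengths came from GENCODE vM21 (GRCm38), which matched 51633 of 51912 identifiers.

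Counts of all 16 libraries were fitted in edgeR 4.0.16 (R 4.3.3) with TMM scaling and quasi-likelihood F tests, for genes averaging 1 CPM or more (15380 genes, 99.8% of counts), with Benjamini-Hochberg adjustment and a threshold of 0.05. CPM use TMM-scaled library sizes. DESeq2 1.42.0, limma 3.58.1 with mouse as random block (consensus correlation of eyes -0.020, log2(CPM + 1)), eyes summed per mouse, covariates and left-out libraries were alternatives. The fit was also run on counts simulated for independent libraries without differences in tissue make-up. That run therefore does not cover shared mice or tissue make-up. The shallowest library held 21113549 counts, and precision is limited by the spread between libraries. The titles name 13 mice, whereas the labels' protocol gives 4 animals per group, and the titles were followed. Replicate numbers follow accession order.

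The members, gene lists and marker lists were chosen with earlier results of these data known. All members were named, with the smallest-p gene of each pathway list and comparison, and the 3 genes most like each member. A few genes that this rule names are not reported here. Promoter sequences are from RefSeq (GRCm38.p6).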

Additional observations from a re-analysis of the deposited data

Results flagged for a closer look

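Within each group of 4 libraries the highest and lowest value of the 10 genes and of 5 marker scores were compared with the nearest library (Dixon's ratio against its 95% critical value), which makes 60 sets. Ratios of genes were taken on log2(CPM + 1), although levels are printed in CPM. Which values pass depends on that scale. There were 6 values past it, where chance takes about 1 in 20 sets, or 3 here, and the measures share libraries. Of these, 4 belong to exposed knockout replicate 1. Its rod score was 9.63 against 2.83 to 3.57 in the other libraries of the group (ratio 0.892). Its Hk1 level was 458 CPM against 206 to 235 CPM (ratio 0.836), its Pgk1 level 290 CPM against 213 to 224 CPM (ratio 0.835), and its Pdk1 level was low, at 86.4 CPM against 118 to 125 CPM (ratio 0.840).

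Hk2 was low in exposed wild type replicate 4, at 40.8 CPM against 80.3 to 89.1 CPM in the rest of the group (ratio 0.865), where the rod score was also the lowest of the group, at 4.36. Epas1 was high in untreated knockout replicate 2, at 852 CPM against 671 to 696 CPM (ratio 0.846).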

How the results depend on the processing

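No member passed the threshold under any of 28 alternatives in any comparison, and the lowest adjusted p there was 0.151. The directions of small changes moved. The fits within identifier forms, with the corneal covariate, without scaling beyond library totals and without the 2 libraries highest in rod markers were added after seeing the data. For every value that moved below, the cause was not tested. No paired analysis was possible because the numbers of the replicates come from accession order, with different mice in each group.

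With hydroquinone averaged over genotype, the rod score as a covariate gave log2 fold changes of -0.0053 for Slc2a1, 0.082 for Hk1, 0.017 for Hk2 and 0.098 for Ldha. Libraries without a letter gave -0.071 for Epas1, -0.077 for Slc2a1, 0.48 for Hk1, 1.35 for Hk2, 0.43 for Ldha and 0.15 for Bnip3, and those with a letter -0.32 for Egln3. For knockout averaged over treatment, the mouse block in limma gave -0.19 for Hk2 and -0.027 for Ldha. Pdk1 was -0.0024 with the identifier form, -0.040 with the rod score and -0.0011 with the corneal score as a covariate, which gave 0.033 for Egln3. Libraries without a letter gave -0.075 for Slc2a1, -0.038 for Pgk1 and -0.14 for Pdk1, and those with a letter 0.0006 for Epas1, -0.060 for Hk2 and -0.029 for Bnip3. Without the 2 rod-rich libraries it was 0.041 for Epas1, -0.15 for Hk1, -1.08 for Hk2, -0.048 for Pgk1, -0.30 for Ldha and -0.25 for Bnip3. Without a letter, Hif3a was -0.38 and, with hydroquinone in knockout, Hk3 -0.46.

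Leaving out each library in turn gave, with hydroquinone averaged over genotype, -0.028 to 0.13 for Slc2a1, -0.29 to 0.098 for Hk1, -1.19 to 0.27 for Hk2, -0.19 to 0.13 for Ldha, 0.024 to 0.19 for Hif1a, 0.015 to 0.13 for Epas1, -0.18 to -0.067 for Pgk1, 0.13 to 0.22 for Pdk1, -0.41 to -0.066 for Bnip3 and 0.068 to 0.40 for Egln3. For knockout it gave -0.087 to 0.024 for Epas1, -0.43 to 0.55 for Hk2, -0.14 to 0.12 for Ldha, -0.034 to 0.065 for Pdk1, -0.082 to 0.19 for Bnip3, 0.080 to 0.25 for Hif1a, 0.12 to 0.26 for Slc2a1, 0.018 to 0.32 for Hk1, 0.011 to 0.11 for Pgk1 and -0.79 to -0.46 for Egln3.

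Genes called with hydroquinone in wild type, 1 as reported, were 2 with DESeq2 size factors, 20 with DESeq2, 3 with the mouse block, 2 with the identifier form, 4 with the rod score as covariate, 0 in libraries with a letter, 3 without the rod-rich libraries, and 1 to 3 leaving out each library (3 without exposed knockout replicate 1, 2 without its replicate 4). In knockout, 7 as reported, they were 14 with DESeq2, 3 with eyes summed, 4 with the identifier form, 1 without and 0 with a letter, and 3 to 11 leaving out each library, with 11 without exposed knockout replicate 1 and 3 or 4 without its replicates 2 or 3, untreated wild type replicate 2, exposed wild type replicate 4 or untreated knockout replicates 1, 2 or 3. Averaged over genotype, 13 as reported, they were 39 with DESeq2, 6 with eyes summed, 2 without and 0 with a letter, and 7 to 15 leaving out each library, with 7 or 8 without untreated wild type replicates 1, 2 or 4, exposed wild type replicate 4, untreated knockout replicates 3 or 4 or exposed knockout replicates 2, 3 or 4. Between genotypes under hydroquinone DESeq2 called 3, against 0.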
